A study of Mus musculus with 6 samples.

Results

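Carbonic anhydrases are zinc enzymes that interconvert carbon dioxide and water with bicarbonate and a proton. In red cells they act beside band 3, the chloride-bicarbonate exchanger, and beside the water channel aquaporin-1, so that carbon dioxide can be carried to the lungs as bicarbonate. The genes described here are 5 of the 53801 gene entries of a count table: the cytosolic enzymes Car1, Car2 and Car13, the membrane enzyme Car9, and the water channel Aqp1. They were named for their place in this system and chosen by their counts in the comparison below, because some of them were lower with Arid3a-FLAG while globin genes were higher. For these 5 genes the difference between the groups is therefore a description without a test.

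The sequenced RNA came from 6 samples of fetal liver cells of mouse embryos at E12.5 to E13.5, whose strain carries Cas9 and EGFP at the Rosa26 locus under a CAG promoter. All 6 samples carried sgGata1, by its name a guide against Gata1, and miR-125b from a lentivirus, and the cells are called Gata1s cells after a shortened GATA1. A further transgene, inducible with doxycycline, was Arid3a-FLAG in 3 samples and LUC in the other 3, and all 6 were given doxycycline at 1 μg/mL for 48 h. The comparison concerns the induction of Arid3a, which encodes a DNA-binding ARID protein, and the LUC samples shared the Gata1 guide, the microRNA and the drug. The labels do not say whether replicates came from separate animals or transductions.

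The Arid3a-FLAG libraries held 15728150 to 17011606 counts on genes and the LUC libraries 16605860 to 18249053. The entry for the tagged Arid3a construct held 3348, 3044 and 2758 counts with Arid3a-FLAG and 0 in each LUC library. The guide's target Gata1 averaged 325.8 ± 6.13 CPM with Arid3a-FLAG and 285.6 ± 29.0 CPM with LUC, and an RNA level does not show whether its protein was shortened. LUC library 2 stood apart: its counts differed from those of LUC libraries 1 and 3 by 30.4 and 34.4 times sampling noise (chi-square per degree of freedom), against 4.93 to 8.02 for the other pairs of the same group. Megakaryocyte markers were abundant, with a summed level of 6756 to 7287 CPM in Arid3a-FLAG libraries and 6580 to 8286 CPM in LUC libraries. Erythroid markers summed to 366 to 448 CPM in Arid3a-FLAG libraries and 320 to 361 CPM in LUC libraries. CPM is the count relative to the library total after scaling of the library sizes (TMM), and it does not take gene length into account.

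Car2, the fast cytosolic enzyme of red cells and osteoclasts, was by far the most abundant of the group and the least different between the groups. It lies on chromosome 3 (14886273 to 14900770, plus strand, mm10). It stood at 527.1, 489.2 and 486.5 CPM in the Arid3a-FLAG libraries and at 532.6, 609.9 and 482.2 CPM in the LUC libraries, on 7750 to 9326 counts. The groups overlapped, and LUC library 2 was the highest of the 6. The means were 500.9 ± 22.7 CPM with Arid3a-FLAG and 541.5 ± 64.3 CPM with LUC (SD, n = 3 each), which is -0.11 as a log2 fold change (SE 0.11, with a 95% interval of -0.35 to 0.13). Without LUC library 2 it was -0.0049, and by TPM, a level per exon length without TMM scaling, it turned to 0.0271.

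Car13, a further cytosolic enzyme that is expressed in many tissues, was lower with Arid3a-FLAG by a small amount. Its gene starts the carbonic anhydrase cluster of chromosome 3 (14641727 to 14663002, plus strand). It stood at 47.5, 44.2 and 48.4 CPM in the Arid3a-FLAG libraries, against 59.5, 68.9 and 61.6 CPM in the LUC libraries. Each Arid3a-FLAG library was below each LUC library. In bulk samples such as these, fewer cells of a type and less RNA per cell cannot be told apart. The log2 fold change was -0.44 (SE 0.10), a level 26.2% lower with Arid3a-FLAG, and it ran from -0.46 to -0.36 with any 1 library left out.

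Car1, the slower and in mature red cells abundant cytosolic enzyme, was a minor transcript here. Its gene (chromosome 3, 14766216 to 14808368, minus strand) was counted 35, 40 and 37 times with Arid3a-FLAG and 105, 87 and 57 times with LUC. That was 2.17, 2.32 and 2.32 CPM with Arid3a-FLAG and 6.07, 5.69 and 3.08 CPM with LUC. The groups did not overlap, but LUC library 3 lay closer to the Arid3a-FLAG libraries than to LUC library 1. The log2 fold change was -1.11 (SE 0.28), 2.16-fold lower with Arid3a-FLAG. It was -1.34 without LUC library 3 and -0.91 without LUC library 1. The Arid3a-FLAG libraries agreed more closely (coefficient of variation 3.804%) than the 16.4% that counting error alone gives at such counts, while the LUC libraries varied by 32.9% against 11.0% from counting.

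**Figure D1:**
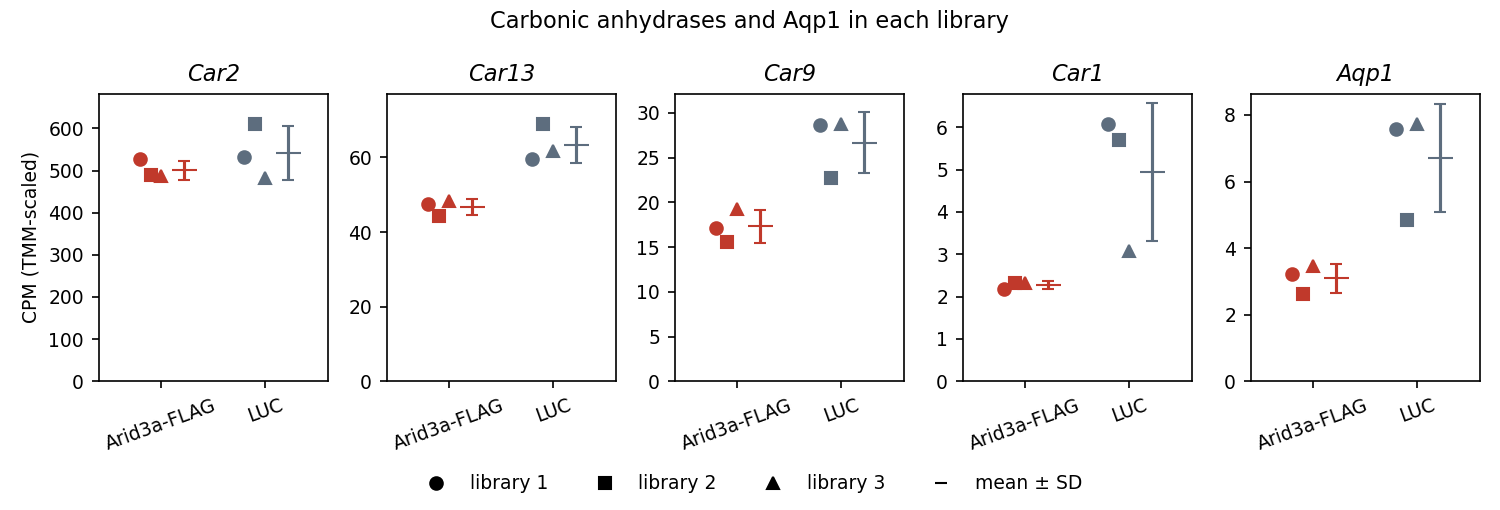
TMM-scaled CPM of Car2, Car13, Car9, Car1 and Aqp1 in each library, with circles, squares and triangles for libraries 1, 2 and 3 and bars for the mean ± SD of 3 libraries. The groups overlap for Car2, and for the other 4 genes each Arid3a-FLAG library lies below each LUC library.

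Car9, a membrane enzyme with its active site outside the cell and a well-known target of the hypoxia-inducible factors, was intermediate. It lies on chromosome 4 (43506966 to 43513729, plus strand). It stood at 17.1, 15.6 and 19.2 CPM in the Arid3a-FLAG libraries and at 28.6, 22.7 and 28.7 CPM in the LUC libraries. The groups did not overlap in CPM, with LUC library 2 the lowest LUC library. The log2 fold change was -0.63 (SE 0.13), 1.54-fold lower with Arid3a-FLAG. It was -0.72 without LUC library 2 and -0.54 without LUC library 3. In TPM the groups overlapped, since LUC library 2 had 23.9 and Arid3a-FLAG library 3 had 25.5. Car9 shares 214 bases of exon with the antisense gene Gm12454, and the sources used here do not say whether counting used the strand. Gm12454 averaged 4.04 ± 0.281 CPM with Arid3a-FLAG and 7.38 ± 0.965 CPM with LUC (log2 fold change -0.87, adjusted p = 0.0199 by edgeR). If counting ignored the strand, reads within the shared bases cannot be assigned to either gene.

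Aqp1, which lets water and, in red cells, some carbon dioxide across the membrane, was as different as Car1. Its gene (chromosome 6, 55336432 to 55348555, plus strand) was counted 52, 45 and 55 times with Arid3a-FLAG and 131, 74 and 143 times with LUC. That was 3.23, 2.61 and 3.45 CPM with Arid3a-FLAG and 7.57, 4.84 and 7.72 CPM with LUC. The groups did not overlap, and LUC library 2 was again the nearest to the Arid3a-FLAG libraries. The log2 fold change was -1.12 (SE 0.23), 2.17-fold lower with Arid3a-FLAG. It was -1.29 without LUC library 2 and -0.98 without LUC library 3.

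All 5 genes passed the low count filter, with at least 35 counts in each library. Of the 5, 4 were lower past an adjusted p of 0.05 and Car2 was not, where 3.87% of the 13631 genes tested were called lower, 3.43% higher and 7.29% in either direction. Since this difference chose the genes, nothing is read from that count. It was also fragile: 0 passed without Arid3a-FLAG library 1 or 2, 1 without LUC library 1, 2 without Arid3a-FLAG library 3 or LUC library 3, and 4 without LUC library 2. In 4 of 5 the groups did not overlap with Arid3a-FLAG lower, a pattern of 16.5% of all genes tested. The direction was kept by all 5 in each fit that left out 1 library, though Car2 was at -0.0049 (SE 0.0684) without LUC library 2. These fits share most libraries and the direction entered the choice of genes, so nothing is read from that either.

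**Figure D2:**
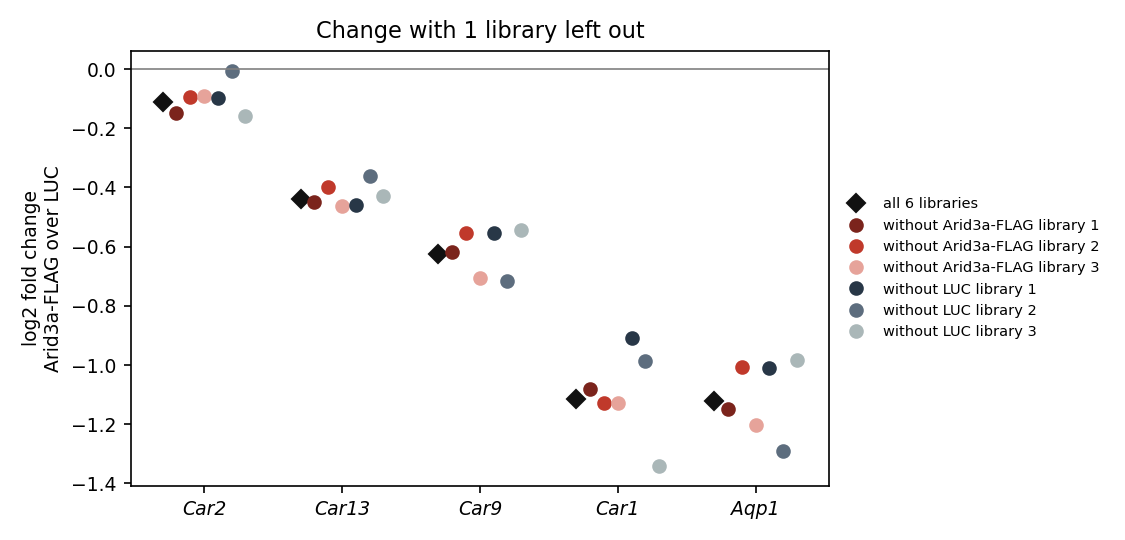
Log2 fold change (Arid3a-FLAG over LUC) of each gene in the fit of all 6 libraries (diamonds) and with 1 library left out (circles). All points lie below 0, and Car1 is lowest without LUC library 3 (-1.34). Aqp1 and Car9 are lowest without LUC library 2 (-1.29 and -0.72) and highest without LUC library 3 (-0.98 and -0.54).

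A ratio between genes of one library does not depend on how libraries are scaled. Per 1000 Car2 counts, Car1 had 4.12, 4.75 and 4.77 counts in Arid3a-FLAG libraries and 11.4, 9.33 and 6.38 in LUC libraries. Aqp1 had 6.12, 5.34 and 7.10 in Arid3a-FLAG libraries and 14.2, 7.93 and 16.01 in LUC libraries, and Car13 had 90.1, 90.3 and 99.5 against 111.7, 112.9 and 127.7. These 3 genes were lower relative to Car2 in each Arid3a-FLAG library than in any LUC library. As the genes were chosen on this contrast and Car2 differed little, the ratios describe the same difference again. The share of all genes tested with such a separation was not computed. Car9 had 32.5, 31.8 and 39.5 in Arid3a-FLAG libraries and 53.7, 37.2 and 59.6 in LUC libraries, and here the groups overlapped through LUC library 2.

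Levels of different genes were compared per exon length, in TPM. In Arid3a-FLAG libraries the order was Car2 (633.4 ± 24.4 TPM), Car13 (62.2 ± 2.46), Car9 (23.0 ± 2.31), Car1 (5.58 ± 0.256) and Aqp1 (3.61 ± 0.480). In LUC libraries the same order held, with Car2 at 621.6 ± 37.0 TPM, Car13 at 76.7 ± 3.67, Car9 at 32.8 ± 7.71, Car1 at 11.0 ± 3.67 and Aqp1 at 7.29 ± 2.45 (SD, n = 3 each). Car1 and Aqp1 overlapped in LUC libraries and did not in Arid3a-FLAG libraries. The other neighbours in the order did not overlap in either group.

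Car2 made up most of the carbonic anhydrase transcripts of both groups. Over 16 carbonic anhydrase genes the summed level was 759.8 ± 23.2 TPM with Arid3a-FLAG and 774.4 ± 46.5 TPM with LUC, a difference smaller than the spread between LUC libraries. Car2 made up 82.03% to 84.02% of that sum in Arid3a-FLAG libraries and 79.01% to 81.76% in LUC libraries. Car1 made up 0.672% to 0.774% in Arid3a-FLAG libraries and 0.978% to 1.77% in LUC libraries. The level of Car2 was 113.8 ± 9.68 times that of Car1 per exon length with Arid3a-FLAG and 60.4 ± 18.3 times with LUC.

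**Figure D3:**
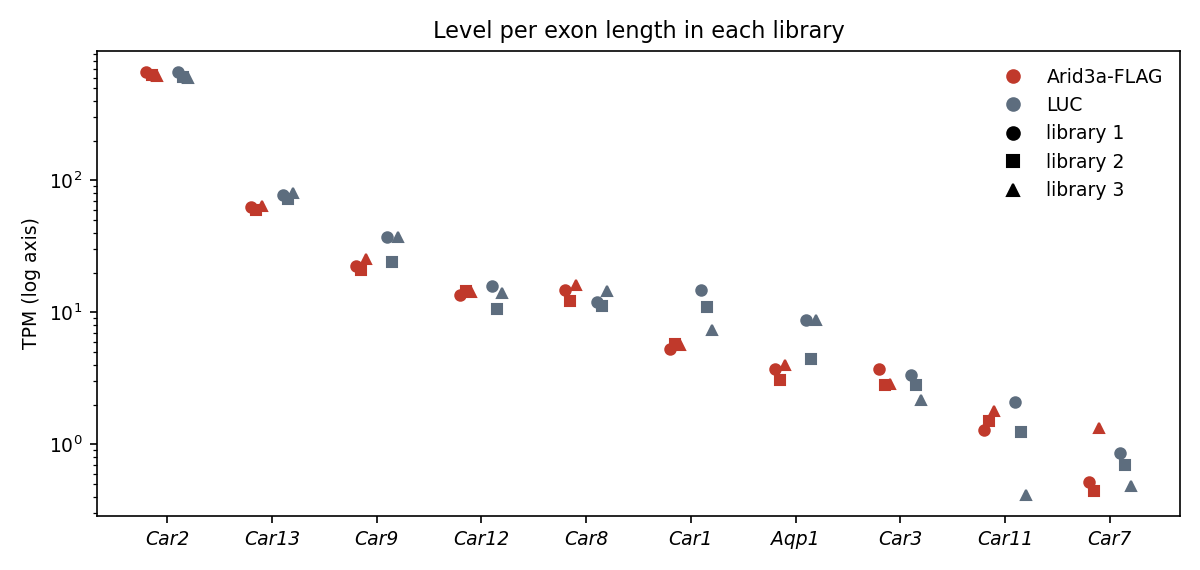
TPM (log axis) of Aqp1 and the 9 carbonic anhydrase genes that passed the low count filter, in each library, ordered by the LUC mean. Car2 lies far above all others in both groups, and by the LUC mean Car1 and Aqp1 lie below Car8 and above Car3.

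The other carbonic anhydrases did not pass the test in either direction. Of 12 listed, 5 were tested, 0 passed and their median log2 fold change was 0.04, against -0.03 over all genes tested. With 7.29% of all genes tested called, 0 of 5 is not read as a result about the family. None of the 5 had an unadjusted p under 0.05, the smallest being 0.613, and DESeq2 and limma-voom called 0. Car12, a membrane enzyme like Car9 and also known as a hypoxia target, averaged 35.1 ± 1.14 CPM with Arid3a-FLAG and 36.4 ± 3.10 CPM with LUC (log2 fold change -0.05, SE 0.10). Car8, a relative without enzyme activity, averaged 18.1 ± 2.71 CPM with Arid3a-FLAG and 17.2 ± 1.80 CPM with LUC. Car3, an enzyme of muscle and fat whose gene stands between Car1 and Car2, averaged 2.95 ± 0.511 CPM with Arid3a-FLAG and 2.87 ± 0.669 CPM with LUC (log2 fold change 0.04, SE 0.26). Car4 and Car10 had 0 counts in all 6 libraries.

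Car13, Car1, Car3 and Car2 lie in this order within 259.0 kb of chromosome 3. Within 1 Mb of the cluster the table held 33 genes, of which 20 had 0 counts in all 6 libraries and 7 were tested. Over all genes tested 7.29% were called, so a count among so few genes is not read as a result about the locus. Of the 4 tested genes outside the chosen group, 0 passed (1 had an unadjusted p under 0.05, and DESeq2 called 1). The smallest p was that of 1810022K09Rik, at -0.37 on the log2 scale (SE 0.11, adjusted p = 0.0701 by edgeR), and without LUC library 2 there was 1 call among the 4. Lrrcc1, a centrosome protein gene, stood at -0.10 (SE 0.10) and the cell cycle factor E2f5 at -0.23 (SE 0.14). The log2 fold changes of the cluster genes ran from -1.11 for Car1 to 0.04 for its neighbour Car3.

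Among the other aquaporins, 3 of 11 were tested, 1 was lower and 1 higher, against 3.87% called lower and 3.43% higher over all genes tested. Aqp9, a channel for water, glycerol and other small solutes, fell to 11.7 ± 2.32 CPM with Arid3a-FLAG, against 21.96 ± 4.04 CPM with LUC. On the log2 scale this was -0.91 (SE 0.18, adjusted p = 0.0145), and leaving out Arid3a-FLAG library 1 or 2 ended the call (adjusted p = 0.0804 and 0.0665). Aqp8, named after its values were seen, had 24, 33 and 17 counts with Arid3a-FLAG and 7, 3 and 5 with LUC. Its log2 fold change of 2.32 (SE 0.42) passed at an adjusted p of 0.0107, with the call lost without Arid3a-FLAG library 1 (0.0528) or 2 (0.0621), and it passed the low count filter through the Arid3a-FLAG libraries. Aqp11, an intracellular aquaporin, averaged 2.41 ± 0.144 CPM with Arid3a-FLAG and 2.92 ± 0.179 CPM with LUC and did not pass (adjusted p = 0.462).

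Band 3 itself, encoded by Slc4a1, was listed at 0 counts in all 6 libraries, which allows at most 0.174 to 0.188 CPM in an Arid3a-FLAG library and 0.162 to 0.196 CPM in a LUC library. Of 31 genes of bicarbonate, chloride and proton transport, 17 were tested, 2 rose, 0 fell and 15 did not pass (median log2 fold change 0.06). The shares over all genes tested were 3.43% called higher and 3.87% called lower. Slc12a2, the sodium-potassium-chloride cotransporter NKCC1, rose to 34.5 ± 2.28 CPM with Arid3a-FLAG, against 23.9 ± 1.58 CPM with LUC (0.53 on the log2 scale, SE 0.11, adjusted p = 0.0163). Slc26a2, a sulfate transporter, rose by 0.46 (SE 0.12, adjusted p = 0.0455). Both calls were lost without Arid3a-FLAG library 1, Arid3a-FLAG library 2 or LUC library 1, with adjusted p up to 0.0995 for Slc12a2 and up to 0.221 for Slc26a2, the second also without Arid3a-FLAG library 3 or LUC library 3. The anion exchanger Slc4a2, named after its values were seen, averaged 37.4 ± 0.770 CPM with Arid3a-FLAG and 28.9 ± 2.58 CPM with LUC and did not pass (adjusted p = 0.0549), and it overlaps Fastk on the opposite strand. Of 6 genes for ammonia, urea and gas channels 3 were tested and 0 passed in edgeR (1 had an unadjusted p under 0.05, and DESeq2 and limma-voom called 0). Among them Rhag, a red cell channel of the Rh complex, averaged 7.12 ± 0.241 CPM with Arid3a-FLAG and 10.3 ± 1.21 CPM with LUC (-0.53, SE 0.15, adjusted p = 0.0637, and 0.0352 without LUC library 2). The urea channel Slc14a1 stood at 0.24 (SE 0.12, adjusted p = 0.229).

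The red cell proteins that surround band 3 moved in both directions. Of 19 listed genes, 14 were tested, 4 rose, 1 fell and 9 did not pass (median 0.24). Over all genes tested, 3.43% were called higher and 3.87% lower. Epb42, which ties band 3 to the membrane skeleton, rose by 2.05 (SE 0.20, adjusted p = 0.00043), and Kel, a blood group protease, rose by 1.58 (SE 0.14, adjusted p = 0.00024). Both calls held in each fit that left out 1 library. Of genes named after their values were seen, the skeleton genes Sptb and Epb41 rose by 0.55 and 0.48 (adjusted p = 0.0255 and 0.0218), and both calls were lost without Arid3a-FLAG library 1, 2 or 3 or LUC library 1 (adjusted p up to 0.135 and 0.129).

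The globins gave the contrast for which the carbonic anhydrases and Aqp1 were picked, and their direction is no independent result. Of 7 globin genes 3 rose, 0 fell and 4 did not pass (median 1.07), beside 3.43% called higher and 3.87% lower over all genes tested. Hba-a1 had 140.8, 96.1 and 119.6 CPM with Arid3a-FLAG and 26.7, 40.9 and 26.4 CPM with LUC (1.93, SE 0.19), and Hba-a1 and its near-identical copy Hba-a2 cannot be told apart with certainty. Hba-a2 stood at 2.91 (SE 0.49), and the embryonic gene Hba-x had 30, 23 and 31 counts with Arid3a-FLAG and 2, 1 and 2 with LUC. Hba-x passed the low count filter through the Arid3a-FLAG libraries alone, and Hba-a2, with 12, 16 and 5 counts in LUC libraries, did not meet it in each of those. Of the beta-like genes, the embryonic Hbb-y averaged 3.84 ± 0.916 CPM with Arid3a-FLAG and 1.84 ± 0.630 CPM with LUC (1.07, SE 0.30, adjusted p = 0.0577). The adult Hbb-bs averaged 26.8 ± 7.83 CPM with Arid3a-FLAG and 16.3 ± 3.65 CPM with LUC (0.72, SE 0.22, adjusted p = 0.0771). Hbb-y was called in 3 of 13 alternative fits and Hbb-bs in 4 of 14. Both passed with DESeq2 (adjusted p = 0.0267 for Hbb-y and 0.0135 for Hbb-bs). Both also passed in edgeR without LUC library 2 (0.0101 and 0.0178). Neither passed with limma-voom (adjusted p = 0.0562 and 0.095), and with 1 library left out edgeR gave up to 0.183 and 0.239. Hbb-bt stood at 0.26 (adjusted p = 0.261) and passed at 0.42 without LUC library 2 (adjusted p = 0.0124), while Hbb-bh1 stood at -0.01, or 0.15 without that library, and passed in neither fit. The direction of the globins entered the choice of genes, so nothing is read from these calls.

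**Figure D4:**
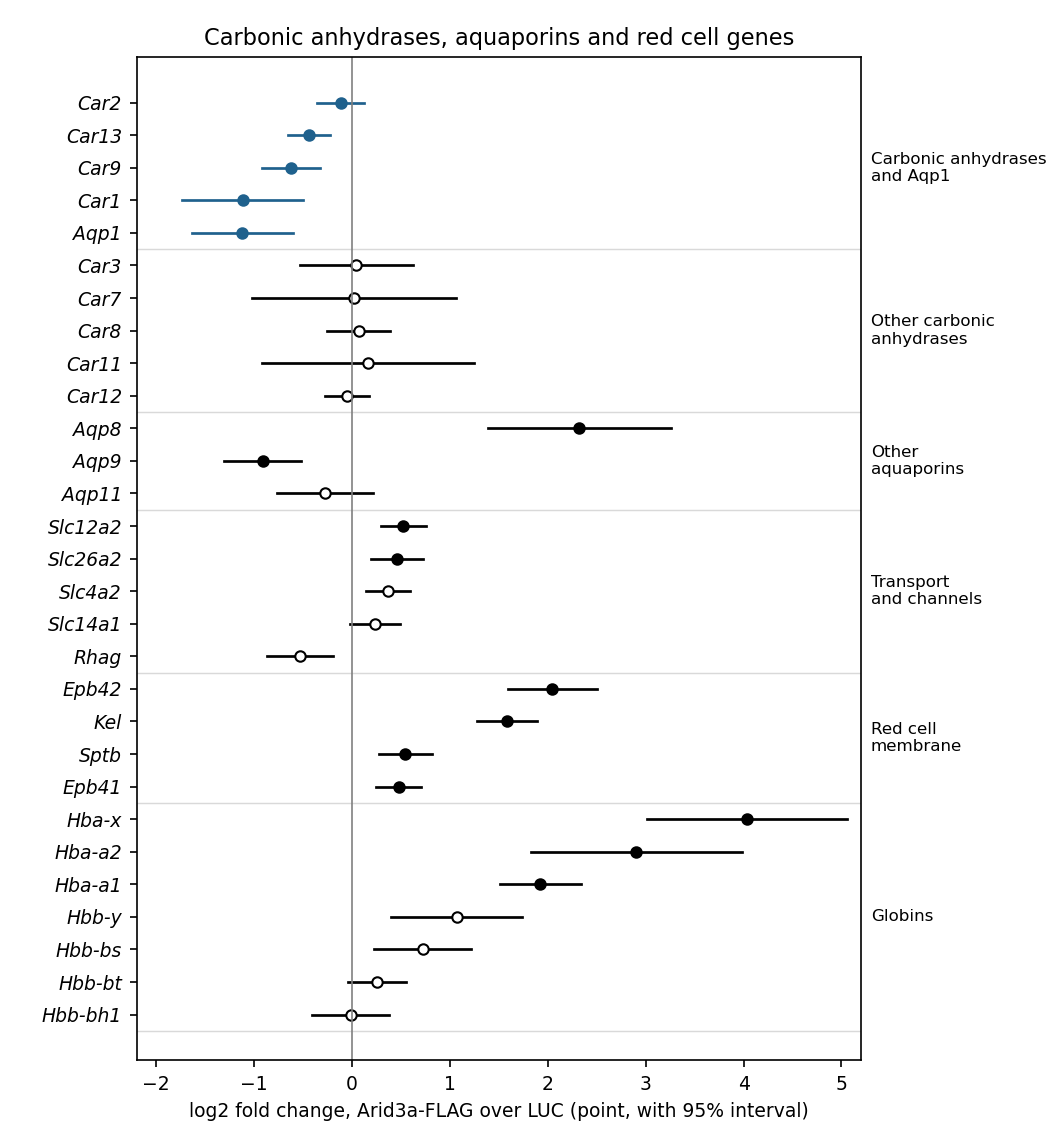
Log2 fold change (Arid3a-FLAG over LUC) with 95% interval for Car1, Car2, Car9, Car13 and Aqp1 (blue, no test), and for relatives, transporters, red cell membrane genes and globins (black; filled where the adjusted p was under 0.05). Alpha-like globins, Epb42 and Kel lie to the right, and Aqp1, Car1 and Aqp9 lie near -1. The direction of the globins was part of the choice of genes.

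Over all 8 lists of related genes, 89 of 126 genes in the table were tested, 12 rose and 3 fell, which is 16.9% called against 7.29% of all genes tested (3.43% higher and 3.87% lower), with a median log2 fold change of 0.07. The 12 include the 3 globins, whose direction was part of the choice of genes. All 8 lists were chosen with earlier results of these data known, so the share called is no independent result. Leaving out LUC library 2 gave 21 genes higher and 10 lower, leaving out Arid3a-FLAG library 1 gave 5 and 1, and leaving out Arid3a-FLAG library 2 gave 6 and 1. Leaving out LUC library 1 gave 6 higher. Of 32 genes of the hypoxia pathway, for which Car9 is a common reporter, 29 were tested, 1 rose, 1 fell and 27 did not pass (median 0.02). The glucose transporter Slc2a3 rose by 0.55 (SE 0.14, adjusted p = 0.0388, up to 0.173 and lost without any Arid3a-FLAG library or LUC library 1). The collagen prolyl hydroxylase P4ha2 fell by 1.59 (SE 0.30, adjusted p = 0.0127, lost without Arid3a-FLAG library 1 at 0.0616 or 2 at 0.0595). The summed level of the hypoxia list was 11514 to 12857 CPM with Arid3a-FLAG and 11175 to 13367 CPM with LUC. Of 12 erythroid factors and receptors 12 were tested and 1 passed. That was the blood master regulator Tal1, which rose by 0.38 (SE 0.10, adjusted p = 0.0444), lost without any Arid3a-FLAG library or LUC library 1 (up to 0.179). Zfpm1, which encodes the GATA1 cofactor FOG1, stood at 0.24 (SE 0.10, adjusted p = 0.156). Klf1, an erythroid factor of many red cell genes that was named after its values were seen, averaged 11.1 ± 3.13 CPM with Arid3a-FLAG and 11.9 ± 3.25 CPM with LUC (-0.10, SE 0.24).

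Markers of several cell types moved beside the carbonic anhydrases and Aqp1, and their counts stand beside 3.43% called higher and 3.87% called lower over all genes tested. Of 10 megakaryocyte markers 10 were tested, Itgb3, Gp1bb and Gp9 rose, Ppbp fell and 6 did not pass. Gp1bb shares 1902 bases of exon with Sept5 on the same strand, and reads within them cannot be assigned to either gene. Of 10 mast cell and basophil markers 9 were tested and 3 fell (Fcer1a, Ms4a2 and Mcpt8), and the list summed to 2152 to 2925 CPM with Arid3a-FLAG and 3018 to 3574 CPM with LUC. Of 8 eosinophil markers 1 was tested, Siglecf, which fell, while Ear1, Ear2 and Ear6 were at 0 and the list summed to 6.02 to 8.73 CPM with Arid3a-FLAG and 11.9 to 14.2 CPM with LUC. Of the 9 erythroid markers found, 7 were tested and 1 passed (lower), with Slc4a1 at 0. Of 10 endothelial markers, relevant since endothelium also makes Aqp1, 6 were tested and Kdr rose, the defining genes Cdh5 and Cldn5 were at 0, and the sum was 239.9 to 270.9 CPM with Arid3a-FLAG and 263.8 to 297.6 CPM with LUC. Of 10 macrophage and osteoclast markers 5 were tested and Csf1r rose, with Ocstamp at 0 and a sum of 15.5 to 15.6 CPM with Arid3a-FLAG and 10.04 to 10.29 CPM with LUC. Csf1r shares 873 bases of exon with Hmgxb3 on the opposite strand. Of 8 hepatocyte markers 1 was tested and did not pass, with Ttr, Fgb and Serpina1a at 0 and a sum of 16.3 to 20.2 CPM with Arid3a-FLAG and 20.1 to 27.2 CPM with LUC. The part of these cell types in the lower carbonic anhydrase and Aqp1 levels was not tested.

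Likeness between genes was described by Pearson's r of log2 CPM over the 6 libraries, which share group and depth, among 9618 named genes of at least 5 CPM. Aqp1 was most like Car9 (r = 0.99), followed by Faap100 (0.99), with r within groups of 0.97 for Car9 and 0.95 for Faap100. All 5 genes were chosen on the difference between the groups, which enters r over the 6 libraries. The highest of 9618 values of r over 6 libraries are high by selection, so nothing is read from these matches. Within groups, LUC library 2 deviated most from its group mean in both Aqp1 and Car9 (log2 CPM lower by 0.43 for Aqp1 and 0.22 for Car9). Car9 was most like Tbc1d9b, Pkd1l2 and Gkap1 (0.99 each). Car13 was most like Samsn1, Relb and Lamtor4, all 1.00 after rounding, and these had log2 fold changes of -0.46, -0.57 and -0.90. Car1 was most like Traf2 (1.00), Fbxl6 and Xrcc1 (0.99 each), whose log2 fold changes of -0.14 to -0.21 were far smaller than that of Car1. Car2 was most like Arl15, Fkbp4 (1.00 each) and Pclaf (0.99).

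Promoter windows from RefSeq (GRCm38.p6) were matched for 2 of the 5 genes, Car9 and Aqp1, so only their sequences are shown. The 250 bases before the RefSeq start are printed 5′ to 3′ on the plus strand, for Car9 at chr4:43506776-43507025 and for Aqp1 at chr6:55336049-55336298. GENCODE places the start of each gene elsewhere, at 43506966 for Car9 and 55336432 for Aqp1. Capitals mark matches on either strand to the following letters. For GATA factors AGATAA and also the variant TGATAA were searched. For KLF factors the letters were CCNCNCCC. For the core of a hypoxia element ACGTG and also the variant GCGTG were searched. For ARID proteins, which bind AT-rich DNA, the letters were ATTAAA.
Car9: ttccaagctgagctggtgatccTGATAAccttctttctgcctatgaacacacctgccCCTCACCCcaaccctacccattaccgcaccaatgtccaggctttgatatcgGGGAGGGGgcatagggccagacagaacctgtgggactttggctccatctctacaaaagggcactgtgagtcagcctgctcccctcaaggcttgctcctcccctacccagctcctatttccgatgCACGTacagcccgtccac
Aqp1: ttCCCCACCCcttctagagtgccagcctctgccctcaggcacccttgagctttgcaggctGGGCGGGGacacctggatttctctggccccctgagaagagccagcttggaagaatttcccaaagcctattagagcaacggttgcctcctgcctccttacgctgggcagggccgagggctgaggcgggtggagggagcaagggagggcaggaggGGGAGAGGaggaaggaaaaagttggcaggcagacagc

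The Car9 window held 1 match to ACGTG, on the minus strand, beginning 18 bases before the start, and ACGTG occurred in 16.6% of 32851 windows of the same length. It also held 1 match to TGATAA (7.94% of windows) and 2 to CCNCNCCC (45.9%). The Aqp1 window held 3 matches to CCNCNCCC. Neither window held AGATAA (9.99% of windows), GCGTG (28.2%) or ATTAAA (12.7%), and that says only that these letters are not in these windows. GC content was 56.4% for Car9 and 62.0% for Aqp1, against a median of 52.4% over all windows.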

How the data were processed

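The authors deposited a table of raw, whole-number counts for each gene. Tools listed in the submitters' processing notes are HISAT2 2.0.5, fastp and featureCounts, and the build is mm10. The sources used here give no settings, annotation release or strand use. The 6 columns were matched to samples by their descriptions. Symbols, positions and lengths came from GENCODE M21 (GRCm38, which is mm10) by identifier; 95 of 53801 genes had no match and took at most 0.017% of a library. The construct entry stayed out of library sizes and tests. Of the listed symbols 2 (Ahsp and Ero1a) were not matched.

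The test was that of edgeR 4.0.16 in R 4.3.3 (filterByExpr with a minimum count of 10, TMM, glmQLFit and glmQLFTest, group as the only term, two-sided), with Benjamini-Hochberg adjustment over 13631 genes and a threshold of 0.05. Adjusted p-values are from this test. SE was taken as the size of a log2 fold change over the root of its F; intervals are at the 95% level and floors use 3 counts, for counting error only. TPM was computed from counts and the union of exons. Alternatives were RLE and upper quartile factors, 2 other filters, DESeq2 1.42.0, limma-voom (limma 3.58.1), the replicate number as a block, the 20 most abundant genes left out, and each library left out. The fit was tested on simulated data. Replicates may be technical, so p-values measure only the spread between these samples. The genes and lists were chosen with earlier results of these data known. Genes were named as follows: the 5 genes; relatives averaging at least 1 CPM; from each list up to 4 called genes with the smallest p, 2 per direction where both held some, otherwise the 2 with the smallest p, with Slc4a1, Rhag and Epb42 always; the 3 most alike genes; and the tested neighbours of the cluster. Some genes that this rule names are counted in their lists but not reported here by name.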

Additional observations from a re-analysis of the deposited data

How the results depend on the processing

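Car1, Car9 and Aqp1 kept their direction and moved by less than the spread between replicates under each alternative that gave a value. By TPM, added after the data were seen, Car2 reversed to 0.0271 and Car13 moved to -0.30. A filter of 5 CPM in 3 libraries removed Car1 and Aqp1 from the test and left 2 of the group lower. With 1 library left out, 0 to 4 of the group passed. The group was chosen on this contrast, so nothing is read from these counts. Genes called higher numbered 869 with no filter, 733 with DESeq2 and 115 to 1191 with 1 library left out, against 467, and genes called lower 1076 with no filter and 118 to 1095 with 1 library left out, against 527. Calls in the lists ran from 5 to 21 higher and 1 to 10 lower with 1 library left out. Near the cluster 1 gene outside the group passed with no filter and with DESeq2, and 0 to 1 with 1 library left out. With the longest transcript as length, Car13 in LUC libraries moved to 58.3 TPM and the order of levels stayed. The cause of these shifts was not tested. With the replicate number as a block 940 genes were called, 4 of the group were lower and Tal1 had an adjusted p of 0.0733 by edgeR; deviations of equally numbered libraries correlated at -0.10, -0.11 and 0.12, and 2 of 6 libraries were closest to their own number, so the numbers were not treated as pairs. Counting error limits Car1 and Aqp1, whose libraries held 35 to 143 counts.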
